A study of Mus musculus with 4 samples.

Results

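The Hox clusters A to D are 4 runs of homeobox genes that lay out the head-to-tail axis of the embryo. The members were 38 Hox genes chosen by name, 10 in cluster A, 10 in B, 9 in C and 9 in D, of 26031 gene models with distinct names. Each cluster was taken as a domain of 5 kb bins. A domain ran from the body, or the 5 kb upstream, of the first member to that of the last, with the bins between them. The 4 domains held 104 of the 511186 bins with sequence.

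DNA carrying 5-hydroxymethylcytosine (5hmC), the oxidised form of 5-methylcytosine that TET enzymes make, was captured by a glucose-azide and biotin tag on streptavidin beads and sequenced, per the series' design text. The 4 groups were mouse embryonic stem (ES) cells knocked out for LSH, wild-type ES cells, mouse embryonic fibroblasts (MEFs) knocked out for LSH, and wild-type MEFs, with 1 library each. LSH is the chromatin remodeler encoded by Hells. ES cells are pluripotent and were grown with LIF, and MEFs are connective tissue cells of the embryo. For the knockout allele, the strain and the age of the embryos, the sources used here give nothing. The deposited data are 2 lists of 5 kb bins called differential between knockout and wild type, 1 for ES cells and 1 for MEFs. They give positions only, so a listed bin is called altered, with no level, direction, fold or replicate error, and neither the cell types nor the knockout could be checked against marker levels. Brackets hold exact 95% binomial intervals over bins or genes, which cover counting error only. Bins and genes are not replicates, so no test between ES cells and MEFs was made.

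In mammals the clusters arose by duplication, and genes at the same place in each form 13 paralogue groups. Genes of low groups lie at the 3′ end of a cluster and act towards the head, and genes of high groups lie at the 5′ end and act towards the tail. This match of gene order with position in the body is called collinearity. In ES cells Hox genes are held silent by Polycomb complexes over CpG-rich DNA, and fibroblasts keep a Hox pattern that reflects where in the body they came from. The clusters also hold microRNA genes of the miR-10 and miR-196 families, which act on messages of Hox and other genes.

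The stretches below show what the altered bins contain. For each cluster and list, the listed bin with the highest CpG density was taken, and within it the 200 bases outside annotated exons with the most CpG, read from the NCBIM37 (mm9) plus strand. CpG, the dinucleotide in which most methylated and hydroxymethylated cytosine lies, is in capitals.

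Between the Hoxa6 and Hoxa3 starts, ES, chr6:52161670-52161869: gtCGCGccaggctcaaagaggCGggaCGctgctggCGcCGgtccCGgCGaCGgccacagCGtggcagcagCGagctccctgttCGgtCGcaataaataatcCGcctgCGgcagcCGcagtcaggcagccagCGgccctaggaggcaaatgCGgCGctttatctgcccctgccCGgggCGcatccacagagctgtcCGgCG

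Downstream of Hoxa2, MEF, chr6:52110536-52110735: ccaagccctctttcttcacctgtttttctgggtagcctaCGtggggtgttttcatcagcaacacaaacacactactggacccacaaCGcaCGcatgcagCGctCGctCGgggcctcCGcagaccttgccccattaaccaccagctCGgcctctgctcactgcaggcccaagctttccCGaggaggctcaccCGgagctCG

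Between Hoxb6 and Hoxb5, ES, chr11:96163176-96163375: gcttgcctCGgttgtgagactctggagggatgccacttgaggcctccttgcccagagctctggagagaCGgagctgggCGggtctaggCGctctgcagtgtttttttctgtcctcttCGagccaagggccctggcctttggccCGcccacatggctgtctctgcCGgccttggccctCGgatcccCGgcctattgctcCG

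Hoxb3 intron, MEF, chr11:96206481-96206680: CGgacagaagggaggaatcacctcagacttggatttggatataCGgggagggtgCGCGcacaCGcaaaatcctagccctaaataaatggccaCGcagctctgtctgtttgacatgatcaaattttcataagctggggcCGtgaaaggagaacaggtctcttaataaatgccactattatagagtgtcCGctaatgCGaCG

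Hoxc4 intron, ES, chr15:102857891-102858090: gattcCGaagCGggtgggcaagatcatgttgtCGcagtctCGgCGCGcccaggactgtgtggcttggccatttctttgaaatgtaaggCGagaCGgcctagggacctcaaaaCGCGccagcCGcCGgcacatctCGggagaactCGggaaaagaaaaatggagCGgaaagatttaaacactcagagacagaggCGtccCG

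Hoxc11 intron, MEF, chr15:102786315-102786514: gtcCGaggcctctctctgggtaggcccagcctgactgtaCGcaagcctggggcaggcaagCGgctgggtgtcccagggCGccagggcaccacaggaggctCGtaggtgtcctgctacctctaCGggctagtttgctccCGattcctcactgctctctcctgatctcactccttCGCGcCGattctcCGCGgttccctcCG

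Hoxd4 intron, ES, chr2:74566035-74566234: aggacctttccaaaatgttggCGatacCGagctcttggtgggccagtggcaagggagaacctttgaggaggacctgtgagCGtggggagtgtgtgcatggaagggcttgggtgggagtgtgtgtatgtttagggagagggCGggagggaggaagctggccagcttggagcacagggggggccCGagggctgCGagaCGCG

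These stretches held 23 and 11 CpG in cluster A (ES, MEF), 10 and 10 in cluster B, 17 and 13 in cluster C, and 8 in the ES stretch of cluster D. The MEF list had no bin in cluster D. Each of the 200-base stretches is only the CpG-richest noncoding part of its bin, and the lists do not say which bases within a bin were altered.

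In ES cells 7 of the 104 Hox bins were altered, 1 in cluster A, 1 in B, 3 in C and 2 in D. In MEFs 7 were altered as well, 1 in A, 5 in B, 1 in C and 0 in D. No bin was in both lists, and the nearest pair lay 10 kb apart, in cluster C. In cluster B the nearest pair was 15 kb apart and in cluster A the only pair was 45 kb apart. Genome-wide the lists had 406 bins in common, which made up 4.75% of ES bins and 4.53% of MEF bins.

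**Figure D1:**
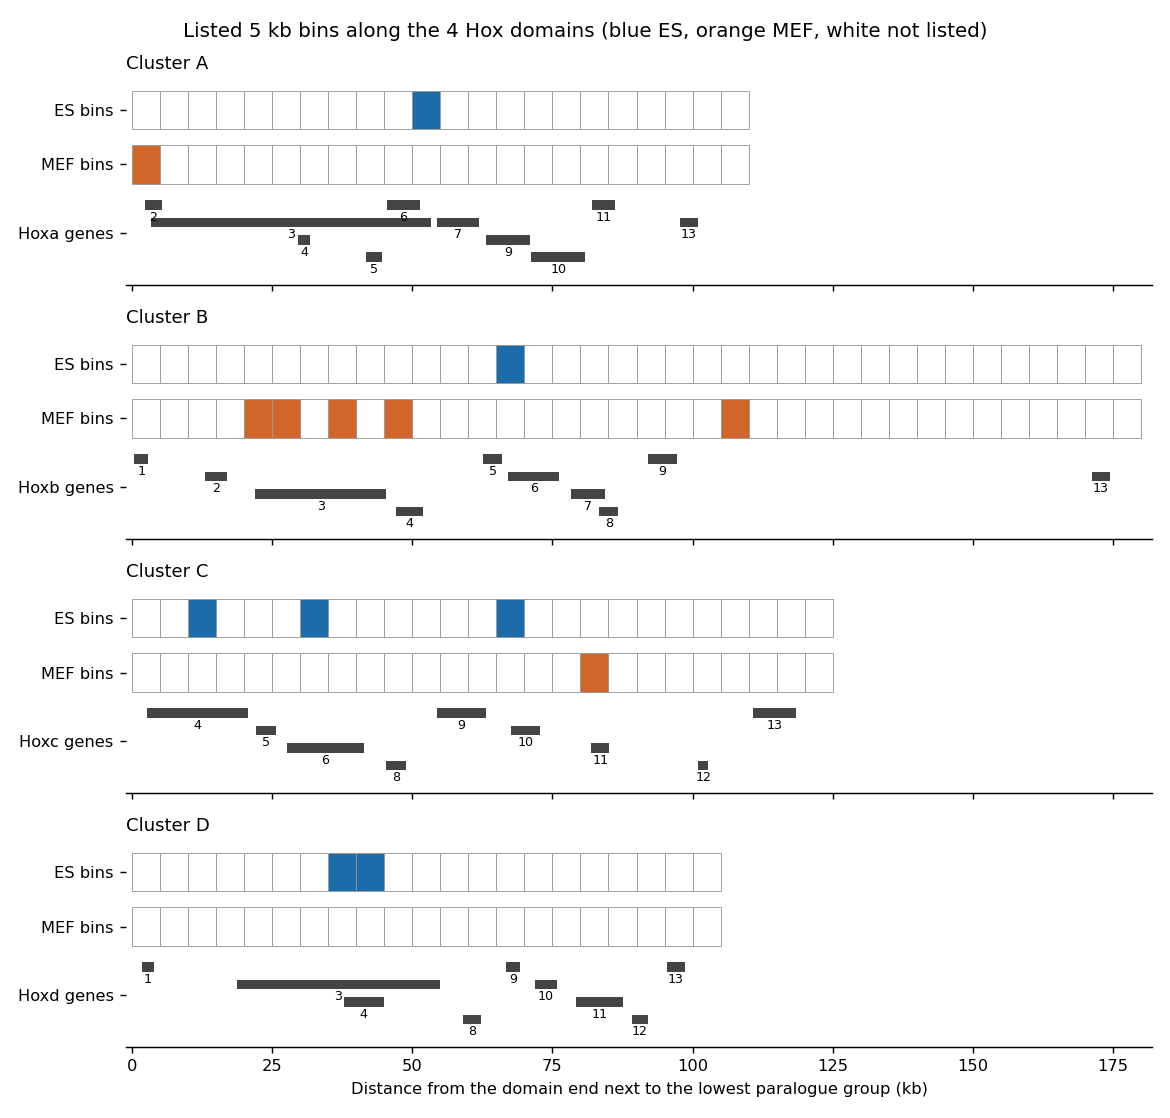
Altered bins along the 4 Hox domains. The x axis is distance in kb from the domain end next to the lowest paralogue group; boxes are 5 kb bins, blue where in the ES list, orange where in the MEF list and white where in neither, and bars are the genes, numbered by paralogue group. The ES bins lie in all 4 clusters, while 5 of the 7 MEF bins lie in cluster B and 0 in cluster D.

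The listed share of the Hox bins was 6.73% in both cell types [2.75% to 13.4%], against 1.67% of all bins in ES cells and 1.75% in MEFs. Hox DNA is rich in CpG, however, with a median of 21.5 CpG per kb in the Hox bins and 7 in all bins, and 78 of the 104 Hox bins fell in the highest of 10 equal groups of all bins by CpG density. Among all bins of like CpG density, 4.94% were in the ES list and 3.56% in the MEF list, which for 104 bins comes to 5.14 ES bins and 3.7 MEF bins. Both values lie within the interval of the Hox share.

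By cluster, the ES share was 4.55% of 22 bins in A [0.115% to 22.8%], 2.78% of 36 bins in B [0.0703% to 14.5%], 12% of 25 bins in C [2.55% to 31.2%] and 9.52% of 21 bins in D [1.17% to 30.4%]. The MEF share was 4.55% in A [0.115% to 22.8%], 13.9% in B [4.67% to 29.5%] and 4.0% in C [0.101% to 20.4%]. In cluster D it was 0 of 21, with an exact interval up to 16.1%; the limit of 3 counts over 21 bins is 14.3%. The MEF share of cluster B had an interval above the 3.51% of bins of like CpG density, and every other interval of a cluster took in its value. Cluster B was picked out here from 8 shares after their values were seen, so its interval is a description.

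**Figure D2:**
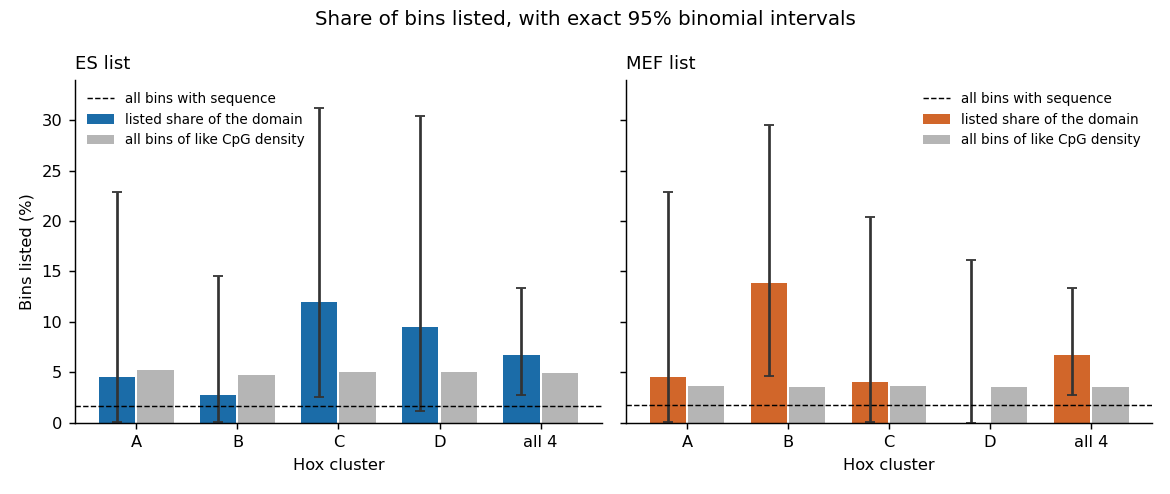
Share of bins listed per Hox cluster. The y axis is the percentage of 5 kb bins in the ES list (left, blue) or MEF list (right, orange), error bars are exact 95% binomial intervals, grey bars are all bins of like CpG density and the dashed line is all bins with sequence (1.67% and 1.75%). Only cluster B in MEFs, at 13.9%, has an interval clear of its grey bar.

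A Hox gene was counted as reached when a listed bin overlapped its body or the 5 kb upstream. In ES cells 12 of 38 members were reached (31.6% [17.5% to 48.7%]), against 19.8% of all genes and 12.5% of genes of like length. In MEFs 6 of 38 were reached (15.8% [6.02% to 31.3%]), against 14.1% of all genes and 7.63% of genes of like length. Genes of like length were not matched for CpG density. By bins of like CpG density, the Hox counts were 7 against 5.14 in ES cells and 7 against 3.7 in MEFs. Neighbouring Hox genes share bins, and 6 of the 7 ES bins and 3 of the 7 MEF bins reached more than 1 member, so these gene counts are not independent. Hoxa3 was the 1 member reached in both lists, and 21 members were reached in neither. The share of all genes reached in both lists is not given here, so whether 1 shared member is few was not tested. The reached members had longer models, with a median of 7183 bp, against 3319 bp in the members reached in neither list.

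In cluster A (chr6, 52112350 to 52215874) the ES bin was chr6:52160001-52165000, with 28.0 CpG per kb. It held the annotated start of the long Hoxa3 model and of a noncoding Hoxa6 transcript, and overlapped the 3′ end of Hoxa7. Hoxa6 and Hoxa7 are central genes that act in the trunk, and Hoxa3 acts in the pharyngeal region and neck. Hoxa3 was reached there through a transcript that starts beyond Hoxa4, Hoxa5 and Hoxa6, and its homeobox lies in exons that the bin does not cover. The MEF bin, chr6:52110001-52115000 with 27.4 CpG per kb, lay at the other end of the cluster, over Hoxa2, which patterns the second pharyngeal arch and hindbrain. It held the Hoxa2 homeobox and ended 412 bases short of the Hoxa2 start in GENCODE M1. The RefSeq Hoxa2 promoter, matched at chr6:52114781-52115080, reached into the bin. Of the 22 members with a RefSeq promoter, 2 had one that touched an ES bin (Hoxa3 and Hoxd4) and 1, Hoxa2, one that touched a MEF bin. The Hoxd4 promoter, at chr2:74559785-74560084, overlapped only the first bases of its bin. From clusters B and C these 22 took in only Hoxb1, Hoxb4, Hoxb8 and Hoxc4. Promoters of Hoxb3, Hoxb5, Hoxb6 and Hoxc6, which have annotated starts in listed bins, were thus not assessed. Hoxa3 was reached by the MEF bin of cluster A only through a model that runs on into Hoxa2, so the single member shared by both lists was shared through its 49981 bp span and through different bins. Hoxa4, Hoxa5, Hoxa9, Hoxa10, Hoxa11 and Hoxa13 had 0 listed bins, and the last 11 bins of the domain, from Hoxa7 to Hoxa13, were in neither list.

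In cluster B (chr11, 96050630 to 96229570) the ES bin was chr11:96160001-96165000. At 43.0 CpG per kb it was the ES bin with the most CpG of the 7 and ranked 3 of 36 in its domain. It held the start of Hoxb5, a start and the homeobox of Hoxb6, and an antisense transcript, 0610040B09Rik. Both genes act in the trunk. The 5 MEF bins lay elsewhere. A run of 4 bins, 2 of them touching, lay over Hoxb3, a gene of the hindbrain and pharyngeal region: chr11:96180001-96185000, which held its first start and the homeobox of its neighbour Hoxb4; chr11:96190001-96195000, with no annotated exon; chr11:96200001-96205000, with the start of a short Hoxb3 transcript and part of the antisense transcript Gm11536; and chr11:96205001-96210000, with its homeobox and the antisense transcript Hoxb3os. Their CpG density was 31.2, 21.6, 21.8 and 35.6 per kb. Hoxb3 thus had 4 of its 7 bins in the MEF list and 0 in the ES list. Hoxb4 had 1 of 3 MEF bins and 0 ES bins, and Hoxb2, a hindbrain gene, had 1 of 3 MEF bins, which ended 2946 bases before its start. Mir10a lay between the ES and MEF bins, 1413 bases from the MEF bin of Hoxb4 and 13479 bases from the ES bin. The fifth MEF bin, chr11:96120001-96125000, lay in the wide interval between Hoxb13 and Hoxb9, in the gene model Gm53, and ended 1478 bases before Mir196a-1. It was the only listed bin between members rather than over one. Hoxb1, Hoxb7, Hoxb8, Hoxb9 and Hoxb13 had 0 listed bins.

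In cluster C (chr15, 102746534 to 102867274) 3 bins were in the ES list. The first, chr15:102800001-102805000, held the homeobox of Hoxc10, a gene of the hind trunk and limb, and the microRNA gene Mir196a-2, and ended 1870 bases before Hoxc9. The second, chr15:102835001-102840000, held a start of Hoxc6, a gene of the thorax, and ended 4246 bases before Hoxc5. The third, chr15:102855001-102860000, lay in an intron of Hoxc4 with no annotated exon and was 4826 bases from the nearest start. Their CpG density was 14.6, 11.4 and 19.4 per kb, ranks 18, 21 and 13 of 25 in the domain. The MEF bin, chr15:102785001-102790000, lay over Hoxc11, which acts in the tail region and hind limb; it held the homeobox, began 143 bases after the start and had 31.6 CpG per kb, rank 4 of 25. Hoxc8, Hoxc12 and Hoxc13 had 0 listed bins.

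In cluster D (chr2, 74501367 to 74603200) the ES list held 2 touching bins, chr2:74560001-74565000 and chr2:74565001-74570000, with 18.8 and 21.4 CpG per kb. They covered Hoxd4, a gene of the hindbrain and neck, with 2 of its 3 bins. The first held the upstream start of Hoxd4, a start of Hoxd3 and the whole of the microRNA gene Mir10b, and the second held the other Hoxd4 start and its homeobox. Both also lay inside the 36346 bp model of Hoxd3, which contains Hoxd4, so bins assigned to the 2 genes cannot be told apart. Hoxd1, Hoxd8, Hoxd9, Hoxd10, Hoxd11, Hoxd12 and Hoxd13 had 0 listed bins in either list, and Hoxd3 and Hoxd4 had 0 in the MEF list.

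Members brought in by the upstream part of the rule alone were Hoxc9 and Hoxc5 in the ES list and Hoxb2 in the MEF list. Just outside it were Hoxa5, with an ES bin 5415 bases upstream, Hoxd13, with an ES bin 6367 bases upstream over Evx2, and in the MEF list Hoxc10 at 7227 and Hoxb9 at 7771 bases.

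**Figure D3:**
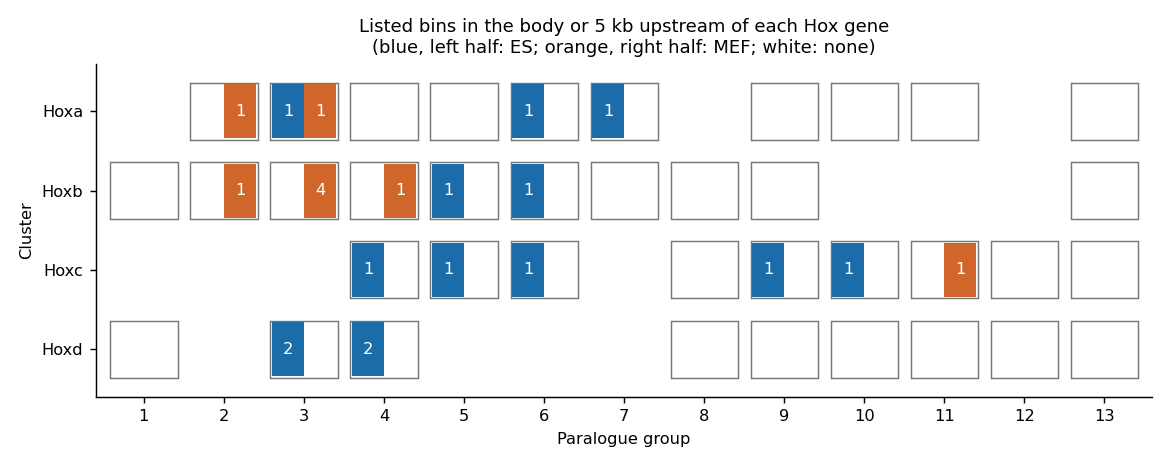
Hox genes by cluster (rows) and paralogue group (columns). Blue on the left of a box gives the number of ES bins and orange on the right the number of MEF bins in the body or 5 kb upstream of each gene, white is 0, and a missing box is not among the 38 members. ES bins sit mainly in groups 3 to 7, MEF bins in groups 2 to 4, and Hoxc9, Hoxc10 and Hoxc11 are the only members of groups 9 to 13 with a bin.

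Along the collinear order the ES list reached most members in the middle of the clusters and the MEF list in groups 1 to 3, in small counts that depended on what was taken as the gene. Of the 7 members of groups 1 to 3, 2 were reached in ES cells (28.6% [3.67% to 71.0%]) and 4 in MEFs (57.1% [18.4% to 90.1%]). Of the 15 members of groups 4 to 8, 8 were reached in ES cells (53.3% [26.6% to 78.7%]) and 1 in MEFs (6.67% [0.169% to 31.9%]). Of the 16 members of groups 9 to 13, 2 were reached in ES cells (12.5% [1.55% to 38.3%]) and 1 in MEFs (6.25% [0.158% to 30.2%]). Counted as distinct bins within each part, 3 of 35 were ES bins and 5 of 35 MEF bins in groups 1 to 3, 6 of 36 and 1 of 36 in groups 4 to 8, and 1 of 37 and 1 of 37 in groups 9 to 13. All 3 ES bins of groups 1 to 3 are also among the 6 of groups 4 to 8, through the long Hoxa3 and Hoxd3 models. The 1 MEF bin of groups 4 to 8 is also among the 5 of groups 1 to 3. Bins of like CpG density were listed at 4.80%, 5.00% and 5.36% in ES cells and at 3.46%, 3.55% and 3.73% in MEFs, in the same order of parts. For 36 or 37 bins, a count of 1 is near these shares. Median CpG density was 24.8, 22.7 and 25.2 per kb, and median gene length 4058, 4955 and 4062 bp. The longest single models of all members, however, were in groups 1 to 3: Hoxa3 (49981 bp), Hoxd3 (36346 bp) and Hoxb3 (23360 bp). Hoxa3 and Hoxd3 were the 2 members reached there in ES cells, and Hoxa3 and Hoxb3 were among the 4 reached in MEFs. The part of length in these counts was not tested. Counted only within 1 kb of a transcription start, groups 1 to 3 had 2 members reached in ES cells and 2 in MEFs, and groups 4 to 8 had 5 and 0. Counted only in the coding span, groups 1 to 3 had 1 and 3, and groups 4 to 8 had 3 and 1. With the bin's midpoint inside the gene or its upstream bases, groups 1 to 3 had 2 and 2. By paralogue group, 7 of 13 groups were reached in ES cells and 4 in MEFs; groups 3 and 4 were reached in both, and groups 1, 8, 12 and 13 in neither. A bin can be counted in 2 parts where neighbours share it, and whether the parts differ was not tested.

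No altered Hox bin was the single most CpG-dense bin of its domain. The highest of the 10 groups by CpG density took in 6 of 7 ES bins, 7 of 7 MEF bins and 65 of 90 bins in neither list. Whether these shares differ was not tested. The 7 ES bins had a median of 19.4 CpG per kb (11.4 to 43.0), the 7 MEF bins 27.4 (17.0 to 35.6) and the 90 bins in neither list 21.3 (6.4 to 56.2). Median GC content was 48.6%, 50.4% and 49.3%, so the Hox bins in and out of the lists had overlapping ranges of both. The densest bin of all 104, at the start of Hoxd8 with 56.2 CpG per kb, was in neither list. An annotated start of a member lay in 5 of 7 ES bins, 3 of 7 MEF bins and 45 of 90 other bins. The conserved tryptophan-phenylalanine motif of the third homeodomain helix, which contacts DNA, was found in the coding exons of all 38 members. Its codons lay in an ES bin for 3 members (Hoxb6, Hoxc10 and Hoxd4) and in a MEF bin for 4 (Hoxa2, Hoxb3, Hoxb4 and Hoxc11).

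**Figure D4:**
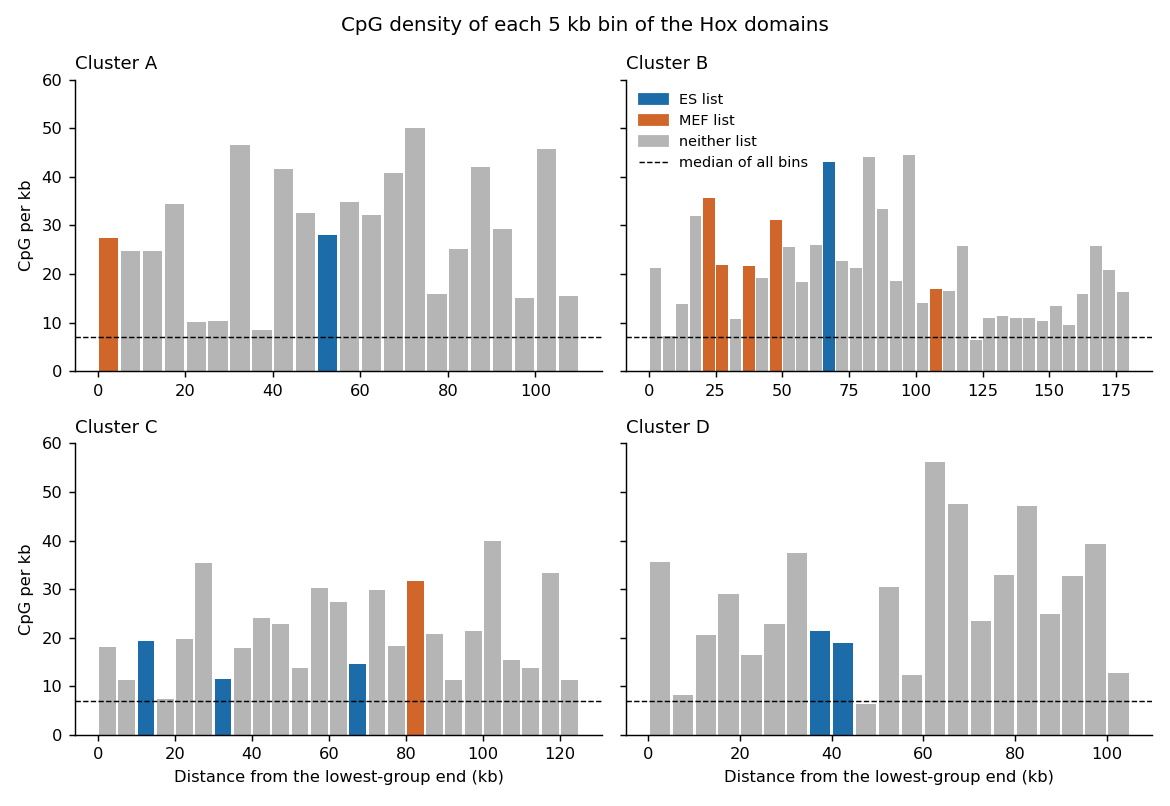
CpG density of every bin of the 4 Hox domains. The x axis is distance in kb from the end next to the lowest paralogue group and the y axis is CpG per kb; bars are blue in the ES list, orange in the MEF list and grey in neither, and the dashed line is the median of all bins, 7. The tallest bars, up to 56.2, are grey, and blue and orange bars lie among them at 11.4 to 43.0.

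Of the 6 microRNA genes in the domains, 2 lay in an ES bin, Mir10b and Mir196a-2, and 0 in a MEF bin. Of all Hox bins 6.73% were in each list, so 0 of 6 in MEFs is near that share. The 2 ES bins are those already counted for Hoxd4 and Hoxc10. Their mature sequences from RefSeq (GRCm38.p6), each found once within the gene on mm9, are shown with the seed, bases 2 to 8, in capitals, since the seed sets which messages a microRNA binds.

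miR-10b-5p: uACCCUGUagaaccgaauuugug

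miR-10a-5p: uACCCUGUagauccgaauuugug

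miR-196a-5p: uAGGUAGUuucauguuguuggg

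miR-196b-5p: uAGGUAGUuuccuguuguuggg

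The miR-10 pair share 1 seed and the miR-196 pair share another. Mir10b, upstream of the homeobox of Hoxd4, was inside an ES bin, while Mir10a, its counterpart in cluster B beside Hoxb4, was in neither list. Likewise Mir196a-2, between Hoxc10 and Hoxc9, was inside an ES bin and gives the same mature miR-196a-5p as Mir196a-1, which was in neither. Mir196b in cluster A and Mir615 in cluster C were also in neither list. The lists say nothing of the level of these RNAs.

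In the 500 kb either side, 26 of 800 bins were in the ES list (3.25%) and 45 in the MEF list (5.62%); bins of like CpG density would give 20.7 ES bins and 20.04 MEF bins. Whether the flanks differ between the cell types was not tested. Beside cluster C, 3 of 200 bins were ES bins and 19 of 200 MEF bins, against 9 and 9 beside A, 9 and 12 beside B, and 5 and 5 beside D. The Hoxc13 side of C held 0 ES bins and 10 MEF bins of 100, and the Hoxc4 side 3 and 9 of 100. For these sides, in the same order, like CpG density would give 1.91 and 2.07 ES bins and 1.95 and 2.01 MEF bins. Over the sides of all clusters it would give 1.89 to 3.94 ES bins and 1.95 to 3.50 MEF bins per side. Before Hoxc13, on the side of the posterior genes, 9 MEF bins and 0 ES bins lay among the 27 bins of chr15:102605001-102740000, a stretch with a median of 7 CpG per kb. At the anterior end of cluster B the MEF bins over Hoxb4 and Hoxb3 stopped before the body of Hoxb2. The bins from chr11:96210001 to 96230000, over Hoxb2 and Hoxb1, were in neither list, and MEF bins resumed past Hoxb1. From chr11:96180001 to 96285000, 10 of 21 bins were in the MEF list and 1 in the ES list. That ES bin, chr11:96265001-96270000, was in both lists. Like CpG density would give 0.487 MEF bins and 0.399 ES bins in the stretch before Hoxc13. In the stretch from Hoxb4 it would give 0.681 MEF bins and 0.81 ES bins. These 2 stretches were singled out after their values were seen. Each begins and ends on a listed bin, a choice of borders that raises its MEF share. Beside cluster D, the 500 kb on the Hoxd13 side held 0 MEF bins of 100 and 1 ES bin, over the homeobox gene Evx2. Bins of like CpG density would give 2.01 MEF bins and 1.89 ES bins there, so both counts are small on either reckoning. The Hoxd1 side held 5 MEF bins and 4 ES bins of 100, against 2.67 and 2.56 for like CpG density.

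**Figure D5:**
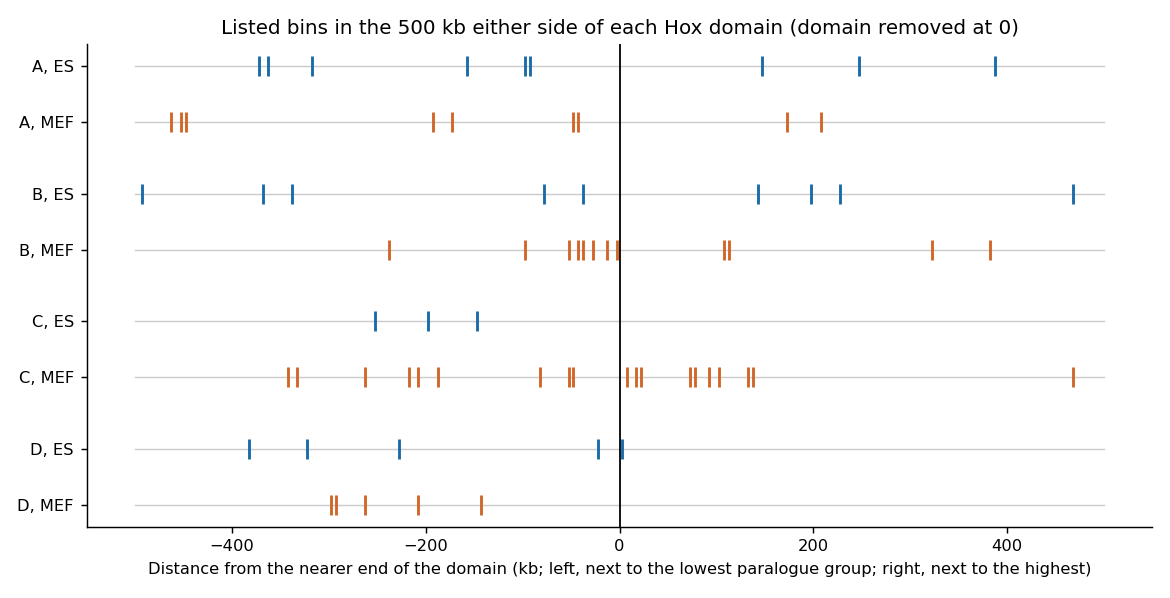
Listed bins in the 500 kb either side of each Hox domain. The x axis is distance in kb from the nearer end of the domain, negative next to the lowest paralogue group and positive next to the highest, and each tick is a 5 kb bin, blue for ES and orange for MEF. MEF ticks crowd left of cluster B next to 0 and lie on both sides of cluster C, 10 on the right and 9 on the left. No MEF tick lies right of cluster D.

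Genes that act with or on Hox genes were counted in the same way, in 6 lists holding 69 genes. In ES cells 26 of 69 were reached, and in MEFs 14 of 69, where genes of like length would give 16.9 and 12.5. Of 18 Polycomb genes, whose products silence Hox clusters, 10 were reached in ES cells and 4 in MEFs, against 4.38 and 3.13 for genes of like length. Among them were Ezh1 and Ezh2, the methyltransferases of Polycomb complex 2, its partner Jarid2, the ubiquitin ligases Rnf2 and Ring1, the chromobox genes Cbx6 and Cbx7, and Phc1 and Phc2, with 1 ES bin each. Jarid2 (2 MEF bins), Rnf2, Cbx7 and Phc2 (1 each) were reached in MEFs too. Of 8 Trithorax genes, which keep Hox genes active, Kmt2a, Kmt2b and Rbbp5 had 1 ES bin each and 0 had a MEF bin, against 1.85 and 1.16 for genes of like length.

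Of 9 genes for the TALE homeodomain cofactors, which bind DNA together with Hox proteins, 2 were reached in ES cells and 4 in MEFs. Pknox2 had 1 ES bin and 11 MEF bins, Meis2 had 0 and 9, and Meis1 had 0 and 1. These models are long, from 138529 bp for Meis1 to 256330 bp for Pknox2. For the whole list, genes of like length would give 3.1 genes in ES cells and 2.76 in MEFs. Of 14 retinoic acid genes, 5 were reached in ES cells and 3 in MEFs, against 3.21 and 2.25 for genes of like length. The receptor gene Rxra had 1 ES bin and 5 MEF bins, the receptor genes Rara and Rarg had 1 ES bin each, Rarb had 1 MEF bin, and Aldh1a2, which makes retinoic acid, had 2 MEF bins. Cyp26c1 and Aldh1a3 had 1 ES bin each. Of 13 ParaHox and neighbouring homeobox genes, Gbx1 had 2 ES bins, Cdx1, Evx2 and Meox1 had 1 each, and 0 of 13 were reached in MEFs. Genes of like length would give 1.97 in ES cells and 1.21 in MEFs. Of 7 genes for CTCF and cohesin, which set chromatin boundaries, Ctcf and Rad21 had 1 ES bin each, and Stag1, Stag2 and Nipbl had 1 MEF bin each, against 2.38 ES genes and 1.99 MEF genes for like length.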

How the data were processed

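The authors deposited 2 lists of 5 kb bins, and their values are other than levels: chromosome, start, end and a running bin number. The submitters' processing notes name BWA, SAMtools 1.3.1 and mm9, with no roles. The bin caller, its threshold and any input library: not given in the sources used here. Depth is unknown. The lists held 8557 ES bins and 9002 MEF bins, of which 8545 and 8972 lay on chromosomes 1 to 19 and X, with 0 repeated. Offsets of the bin numbers matched the reference NCBIM37 at 19 of 19 chromosome borders.

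A bin counted as having sequence unless over 50% of its bases were undetermined. Members were matched in GENCODE M1 by name. Any overlap of 1 base counted. Like CpG density means the same of 10 equal groups of all bins by CpG per kb, and like length the same of 10 groups of genes by span. Like length leaves CpG density unmatched. Positions are 1-based. The members and gene lists were chosen with earlier results of these data known. Every member is accounted for, and of the pathway genes reached, some are not reported here. The counting was tested on simulated data. Kmt2a and Kmt2b were matched through older symbols on the same chromosome in RefSeq (GRCm38.p6). Of the members, 22 had a promoter in RefSeq, with 24 of 24 entries found once on mm9. Scripts ran in Python 3.11.15 with pandas 2.3.3, scipy 1.17.1 (intervals), numpy 2.4.6 and matplotlib 3.10.9.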

Additional observations from a re-analysis of the deposited data

How the results depend on the processing

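The number of altered Hox bins stayed at 7 to 8 in ES cells and at 6 to 7 in MEFs under bin midpoints, no upstream bases, 10 kb upstream, protein-coding transcripts only, or member bodies and upstream bases without the bins between. The count per cluster stayed within 1.5 times under the first 4 of these. Members reached depended more on what counts as the gene. Within 1 kb of a transcription start, 7 members were reached in ES cells and 3 in MEFs. Within the coding span alone, an alternative added after seeing the data, 5 were reached in ES cells, which lost Hoxa6, Hoxa7, Hoxc4, Hoxc5, Hoxc6, Hoxc9 and Hoxd3, and 5 in MEFs. By paralogue groups, midpoints gave 1 ES member in groups 9 to 13 and 2 MEF members in groups 1 to 3, and no upstream bases gave 1 ES member in groups 9 to 13. With 10 kb upstream, groups 9 to 13 had 2 ES bins, 3 MEF members and 2 MEF bins. Within 1 kb of a start, ES cells had 5 members in groups 4 to 8 and 0 members and 0 bins in groups 9 to 13, and MEFs had 2 members in groups 1 to 3 and 0 members and 0 bins in groups 4 to 8. In the coding span, ES cells had 1 member and 1 bin in groups 1 to 3, 3 members and 2 bins in groups 4 to 8 and 1 member in groups 9 to 13, and MEFs had 2 bins in groups 1 to 3. These last 2 settings were added for the paralogue groups after seeing the data. With bins within 1 bin of the other list counted as shared, 0 were shared. With 20 CpG groups the like-density shares were 4.69% in ES cells and 3.19% in MEFs. Flanks of 250 kb and 1 Mb gave 3.75% and 3.87% in ES cells and 8.25% and 4.39% in MEFs. No paired analysis was possible because each group has 1 library and the lists hold no value per library. With depth and caller unknown, cell type and list making cannot be told apart.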
